A study of Homo sapiens with 24 samples.

Results

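The subject is a set of 60 listed genes on the long arm of chromosome 6, between TAAR2 and WDR27, a stretch of 37.1 Mb (chr6:132617150-169702029, GRCh38.p14) whose genes were shifted up in an SLFN11 knockout line of Ewing sarcoma cells. The members were chosen on that line difference, measured in these same arrays, so their higher signal in the knockout line is what the choice used and is described here without a test. Of the 60 genes, 55 were measured among 17687 genes in all. Another 5 (TCP1, SOD2, VTA1, REPS1 and PLAGL1) are not named in the probe annotation and have no value here. Of the 55, 37 had a mean log2 signal above 6 over all arrays and are called expressed, and 18 had a mean of 6 or below and are called dim. The same stretch holds 97 other measured genes.

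RNA of 2 human lines was measured on 24 Affymetrix whole-transcript arrays. The knockout cells are 1 derivative line of ES8 (ES8-1F2), made with CRISPR/Cas9 directed at SLFN11, and the parental cells are ES8, a line from an Ewing sarcoma, a bone and soft tissue tumour driven by a fusion of EWSR1 with an ETS factor. Each was exposed to 2 Gy or left at 0 Gy of gamma rays and harvested after 24 h or 4 h, which gives 8 groups of 3 arrays. Replicates are numbered in the titles and are not stated to be separate cultures, so the p-values may reflect technical spread alone. With 1 knockout line, loss of SLFN11 cannot be told apart from any other difference between the 2 lines.

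The members do not form a pathway. They encode proteins of the cell cortex and cytoskeleton, signalling and transcription factors, RNA processing and translation factors, mitochondrial proteins, cell cycle regulators, and peroxisome and membrane proteins, and what they share by choice is a chromosome arm. The members lie in the same stretch of a chromosome, so they cannot be taken as independent of each other. SLFN11, the targeted gene, lies on another chromosome and encodes a Schlafen protein that blocks replication in cells with damaged DNA.

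UTRN and PHACTR2 are the expressed and the dim member with the largest differences. MYB and HEBP2 are the expressed and the dim member with the lowest differences, below 0 in both. The promoter windows of these 4 members, which stand at the ends of the range, are shown first. Each is the 250 bases before the annotated start, 5′ to 3′ on the plus strand, from RefSeq (GRCh38.p14), with capitals marking GC boxes (GGGCGG or, on the other strand, CCGCCC) and the E-box CACGTG. The windows are chr6:144285085-144285334 for UTRN, chr6:143536628-143536877 for PHACTR2, chr6:135181058-135181307 for MYB and chr6:138403281-138403530 for HEBP2.
UTRN: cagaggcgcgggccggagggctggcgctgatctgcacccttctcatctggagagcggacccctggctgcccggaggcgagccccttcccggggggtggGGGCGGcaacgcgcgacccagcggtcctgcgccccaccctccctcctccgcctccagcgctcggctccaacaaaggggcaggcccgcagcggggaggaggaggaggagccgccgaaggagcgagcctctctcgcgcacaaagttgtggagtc
PHACTR2: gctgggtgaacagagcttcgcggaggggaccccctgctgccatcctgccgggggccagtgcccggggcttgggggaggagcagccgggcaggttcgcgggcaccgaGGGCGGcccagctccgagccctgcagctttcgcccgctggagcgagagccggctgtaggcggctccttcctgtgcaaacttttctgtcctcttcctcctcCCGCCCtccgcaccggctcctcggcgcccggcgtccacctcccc
MYB: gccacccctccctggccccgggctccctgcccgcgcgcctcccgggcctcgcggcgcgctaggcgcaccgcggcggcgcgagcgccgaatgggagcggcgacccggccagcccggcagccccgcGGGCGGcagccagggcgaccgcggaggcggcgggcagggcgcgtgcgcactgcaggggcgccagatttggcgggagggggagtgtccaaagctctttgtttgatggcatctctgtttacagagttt
HEBP2: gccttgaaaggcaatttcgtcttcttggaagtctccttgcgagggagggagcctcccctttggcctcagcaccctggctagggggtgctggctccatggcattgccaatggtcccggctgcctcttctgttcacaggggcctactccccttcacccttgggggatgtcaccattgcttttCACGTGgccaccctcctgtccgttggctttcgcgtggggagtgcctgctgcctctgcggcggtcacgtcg

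The UTRN, PHACTR2 and MYB windows are rich in C and G (73.2%, 72.8% and 75.6%) and hold 24, 22 and 34 CG dinucleotides. The HEBP2 window has 62.0% C and G and 11 CG dinucleotides, against a median of 23 over members and 18 over all genes with a window. GC boxes number 1 in UTRN, 2 in PHACTR2, 1 in MYB and 0 in HEBP2, which has the E-box instead. The windows of MYB, lower in the knockout line, and of UTRN, higher, thus have 1 GC box each.

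Windows were at hand for 42 of the 55 measured members. The GC box, searched as GGGCGG on both strands, was in 29 of 42 members (69.0%), against 57.1% of 12376 genes with a window. TATAAA was in 4 members (LTV1, SGK1, SYNE1 and WDR27), or 9.52%, against 9.35% of all genes. The E-box CACGTG was in 5 members (AKAP12, CITED2, HEBP2, IGF2R and RMND1), or 11.9%, against 7.80%. A pair of GGAA repeats, GGAAGGAA, the kind of sequence EWSR1-FLI1 is known to bind, was in 2 members (MRPL18 and PPIL4), or 4.76%, against 3.14%. These motifs were chosen with the line differences known, were counted on both strands without regard to overlap, and a match describes letters only.

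SLFN11 itself had a log2 signal of 6.83 ± 0.26 in knockout cells and 8.30 ± 0.18 in parental cells (SD, n = 12 arrays each, over dose and time). Its lines did not overlap: the knockout arrays ran between 6.33 and 7.07 and the parental arrays between 8.03 and 8.63. The background level of the arrays lay between 3.46 and 3.81, so signal remained above background at SLFN11, and whether its probes lie in the edited part is not known here. All 9 measured markers of Ewing sarcoma were expressed, and none of the epithelial (7 measured), blood (6) and endothelial (6) markers was, nor was any gene of these 3 lists called in all 4 conditions. Of 5 measured fibroblast markers 2 were expressed. The summed linear signal of the Ewing list lay between 4516 and 5043 on knockout arrays, against 3857 to 4549 on parental arrays, and that of the fibroblast list between 522 and 715, against 339 to 588. In all 4 conditions, 4 Ewing markers were called higher and 1 lower, and 1 fibroblast marker higher and 1 lower. Their part in the differences below was not tested.

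Among expressed members the knockout line was higher in nearly all cases. The line difference, knockout minus parental signal on the log2 scale averaged over the 4 conditions of dose and time, had a median of 0.42 (a fold of 1.34), and 36 of the 37 expressed members lay above 0. The middle of the distribution was narrow, between 0.21 and 0.49 for the quartiles, while the extremes were -0.28 and 1.15. The SD over the expressed members was 0.26, against a median standard error of 0.057 for a single member, so the members differed among themselves by more than the error of 1 value. The median over all 6997 expressed genes of the arrays was 0.0079.

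Because the members were chosen on these arrays, the direction of the medians per array follows from the choice, and they are given as a description. After each gene was centred on its mean over all arrays, the median over the 37 members lay between 0.14 and 0.27 on the 12 knockout arrays, against -0.29 to -0.08 on the 12 parental arrays. The mean of these array medians was 0.20 ± 0.034 in knockout cells and -0.18 ± 0.058 in parental cells (SD, n = 12 each). The corresponding medians over all expressed genes lay between -0.03 and 0.05 on knockout arrays and -0.06 and 0.04 on parental arrays. Quantile normalization gives the arrays a common distribution, so medians near 0 over all genes are in part set by the processing.

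The difference was of like size in each condition. After 2 Gy the median over expressed members was 0.40 at 24 h and 0.43 at 4 h, and at 0 Gy it was 0.38 at 24 h and 0.40 at 4 h. At an adjusted p below 0.05 (limma, Benjamini-Hochberg over 17687 genes), 22 expressed members were called higher and 0 lower after 2 Gy at 24 h, where 6.29% of all genes were called higher and 5.68% lower. At 4 h after 2 Gy, 23 were called higher and 0 lower (6.87% and 5.13% of all genes). Without irradiation 22 were called higher and 1 lower at 24 h (6.47% and 5.09%), and 21 higher and 0 lower at 4 h (6.27% and 5.5%). Since this contrast chose the members, these shares are set beside the counts and nothing is read from them.

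Over the 4 conditions, 16 expressed members were called higher in all, 12 in 1 to 3 and 9 in none. The first are HBS1L, IFNGR1, CITED2, LTV1, SF3B5, UTRN, TAB2, PPIL4, NUP43, PCMT1, AKAP12, MTRF1L, WTAP, MRPL18, QKI and AFDN. Those called in 1 to 3 are SGK1, AHI1, PEX3, SHPRH, LATS1, RMND1, FBXO5, SCAF8, ARID1B, EZR, IGF2R and WDR27. Those never called higher are MYB, BCLAF1, MAP3K5, HECA, ADAT2, ZBTB2, TFB1M, SNX9 and TULP4. Of all genes tested, 3.54% were called higher and 2.84% lower in all 4 conditions. Every knockout array lay above every parental array for 16 expressed members, and 3.22% of all genes showed that order, while 2.43% showed the opposite one.

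**Figure D1:**
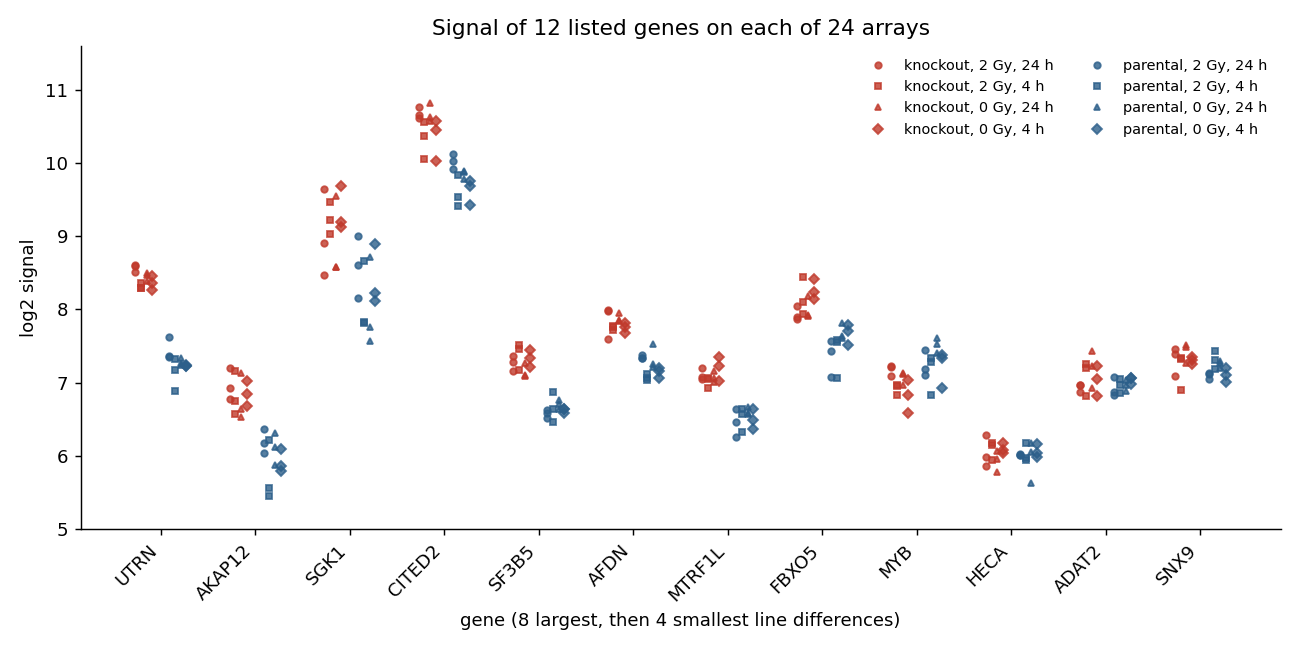
Log2 signal on each of the 24 arrays for the 8 expressed members with the largest and the 4 with the smallest line differences; red marks are knockout arrays, blue marks parental arrays, and the mark's shape gives dose and time. The lines stand apart for UTRN (1.15) and overlap for HECA (0.03), and MYB has the opposite sign (-0.28).

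Of the genes of the cell cortex and membrane, UTRN had the largest difference, which was also the largest among all expressed members. UTRN (chr6:144285335-144853034) encodes utrophin, a relative of dystrophin that ties actin to the membrane. Its log2 signal ran from 8.26 over a median of 8.42 to 8.60 on knockout arrays, against 6.88, 7.26 and 7.63 on parental arrays. The lines did not overlap, and the difference of 1.15 (SE 0.05) varied little with condition, between 1.12 and 1.19.

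AKAP12 (chr6:151239967-151358559), a scaffold for protein kinase A at the membrane, had lowest, median and highest signals of 6.54, 6.82 and 7.20 on knockout arrays, against 5.45, 6.06 and 6.37 on parental arrays. The ranges stood apart by a small gap, and the difference was 0.87 (SE 0.09). AKAP12 had a mean of 5.99 in parental cells and of 6.85 in knockout cells, and so passed the limit of 6 through the knockout arrays. AFDN (chr6:167826564-167972023) encodes afadin, which links nectins to actin at adherens junctions. It had 7.60, 7.79 and 7.99 on knockout arrays, against 7.03, 7.21 and 7.52, again without overlap, and a difference of 0.58 (SE 0.05). EZR, coding for ezrin, which links actin to the plasma membrane, was brighter, at 9.37 ± 0.07 in knockout cells and 9.07 ± 0.08 in parental cells (SD, n = 12 each), and was called higher in 3 of 4 conditions. SNX9 (chr6:157823246-157945077), a sorting nexin of endocytosis, differed by 0.11 (SE 0.06) and its lines overlapped, at 6.89, 7.33 and 7.51 on knockout arrays against 7.00, 7.20 and 7.44 on parental arrays.

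Of the signalling and transcription genes, SGK1 and CITED2 had the largest differences. SGK1 (chr6:134169256-134318112), a kinase induced by glucocorticoids and serum, had 8.47, 9.16 and 9.69 on knockout arrays, against 7.57, 8.19 and 9.00 on parental arrays. The lines overlapped here, the SDs were 0.43 and 0.48, and the difference of 0.84 (SE 0.14) lay between 0.42 and 1.14 by condition. In every one of the 8 groups replicate 3 had the highest SGK1 signal, for example 9.69 against 9.13 and 9.20 in knockout cells at 0 Gy and 4 h. CITED2 (chr6:139371807-139374648), a co-regulator that competes for CBP and p300, had 10.02, 10.58 and 10.83 on knockout arrays, against 9.42, 9.81 and 10.12 on parental arrays. A slight overlap remained, and the difference was 0.74 (SE 0.06).

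Other receptors and signal carriers differed by less. TAB2, an adaptor of the kinase TAK1, had 8.36 ± 0.12 in knockout cells and 7.87 ± 0.19 in parental cells, a difference of 0.49. IFNGR1, the ligand-binding chain of the interferon gamma receptor, had 6.87 ± 0.08 and 6.49 ± 0.12 in the same order (SD, n = 12 each), a difference of 0.37. IGF2R, which carries IGF2 to lysosomes, differed by 0.42 and was called higher in 2 conditions. LATS1, a kinase of the Hippo pathway, differed by 0.21 and was called in 1 condition, and MAP3K5, a stress-activated kinase, differed by 0.18 and was called in none.

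Among nuclear regulators, ARID1B, a subunit of the BAF chromatin remodeller, had no overlap of its lines, at 6.82 ± 0.11 in knockout cells and 6.50 ± 0.07 in parental cells (SD, n = 12 each). ZBTB2, a zinc finger repressor, differed by 0.29 and BCLAF1, a nuclear factor linked to transcription and RNA processing, by 0.16, and neither was called in any condition. TULP4 differed by 0.19, and AHI1, a protein of the primary cilium, by 0.43.

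MYB (chr6:135181308-135219172), a transcription factor of progenitor cells, was the expressed member below 0. Its signal was 6.58, 7.01 and 7.22 on knockout arrays, against 6.82, 7.34 and 7.60 on parental arrays. The lines overlapped. The difference was -0.28 (SE 0.07) on average. At 24 h it was -0.06 after 2 Gy and -0.44 at 0 Gy, the condition in which MYB was called lower. Its neighbours in the list, HBS1L and AHI1, lay at 0.49 and 0.43.

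Of the genes of RNA processing and translation, SF3B5, QKI, WTAP, PPIL4, HBS1L and LTV1 were called higher in all 4 conditions, and SCAF8 and ADAT2 were not. SF3B5 (chr6:144094884-144095573), a small subunit of the SF3b splicing complex, had 7.09, 7.28 and 7.52 on knockout arrays, against 6.47, 6.64 and 6.87 on parental arrays, without overlap, a difference of 0.64 (SE 0.06). QKI, an RNA-binding protein of splicing, was at 9.23 ± 0.06 in knockout cells and 8.81 ± 0.11 in parental cells. WTAP, a subunit of the m6A methyltransferase complex, was at 9.08 ± 0.10 and 8.62 ± 0.17 in the same order (SD, n = 12 each).

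PPIL4, a cyclophilin-type protein of the spliceosome, differed by 0.50 and SCAF8, which binds RNA polymerase II, by 0.36. HBS1L, which rescues stalled ribosomes, differed by 0.49 and LTV1, a factor of small ribosomal subunit assembly, by 0.44. ADAT2 (chr6:143422832-143450695), the catalytic subunit of a tRNA adenosine deaminase, differed by 0.09 (SE 0.06). Its signals overlapped, at 6.81, 7.01 and 7.43 on knockout arrays, against 6.83, 6.97 and 7.07 on parental arrays. ADAT2 and PEX3 lie next to each other, and PEX3 differed by 0.37.

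The mitochondrial genes were not uniform. MTRF1L (chr6:152987362-153002709), a mitochondrial release factor, had 6.93, 7.06 and 7.35 on knockout arrays, against 6.26, 6.57 and 6.67 on parental arrays, without overlap, a difference of 0.58 (SE 0.06). MRPL18, a protein of the large mitochondrial ribosomal subunit, was at 8.79 ± 0.14 in knockout cells and 8.32 ± 0.12 in parental cells (SD, n = 12 each). RMND1, needed for mitochondrial translation, differed by 0.36 and was called in 2 conditions. TFB1M, a methyltransferase of mitochondrial ribosomal RNA, differed by 0.19 and was called in none.

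Next to MTRF1L lies FBXO5 (chr6:152970535-152983579), coding for EMI1, an inhibitor of the anaphase promoting complex. It had 7.86, 8.08 and 8.45 on knockout arrays, against 7.06, 7.57 and 7.81 on parental arrays, so that the lines just stood apart. The difference was 0.56 (SE 0.07) and lay between 0.32 and 0.77 by condition, with a call in 3. NUP43, a nuclear pore subunit, was at 8.12 ± 0.09 in knockout cells and 7.67 ± 0.13 in parental cells (SD, n = 12 each). PCMT1, which repairs aged proteins, differed by 0.44 and SHPRH, a ubiquitin ligase of DNA damage tolerance, by 0.21. WDR27, a WD repeat protein at the distal end of the list, differed by 0.27 and was called in 1 condition.

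The 37.1 Mb also held expressed members with little difference. HECA (chr6:139135080-139180802), the homologue of a fly headcase gene, had a mean of 6.03, just above the limit of 6, and signals of 5.78, 6.05 and 6.29 on knockout arrays, against 5.63, 6.01 and 6.18 on parental arrays. The lines overlapped almost wholly and the difference was 0.03 (SE 0.07). SASH1, a scaffold of Toll-like receptor signalling, had a mean of 5.93, just below the limit, and a difference of -0.07 (SE 0.08), at 5.60, 5.95 and 6.10 on knockout arrays against 5.56, 5.99 and 6.58 on parental arrays.

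**Figure D2:**
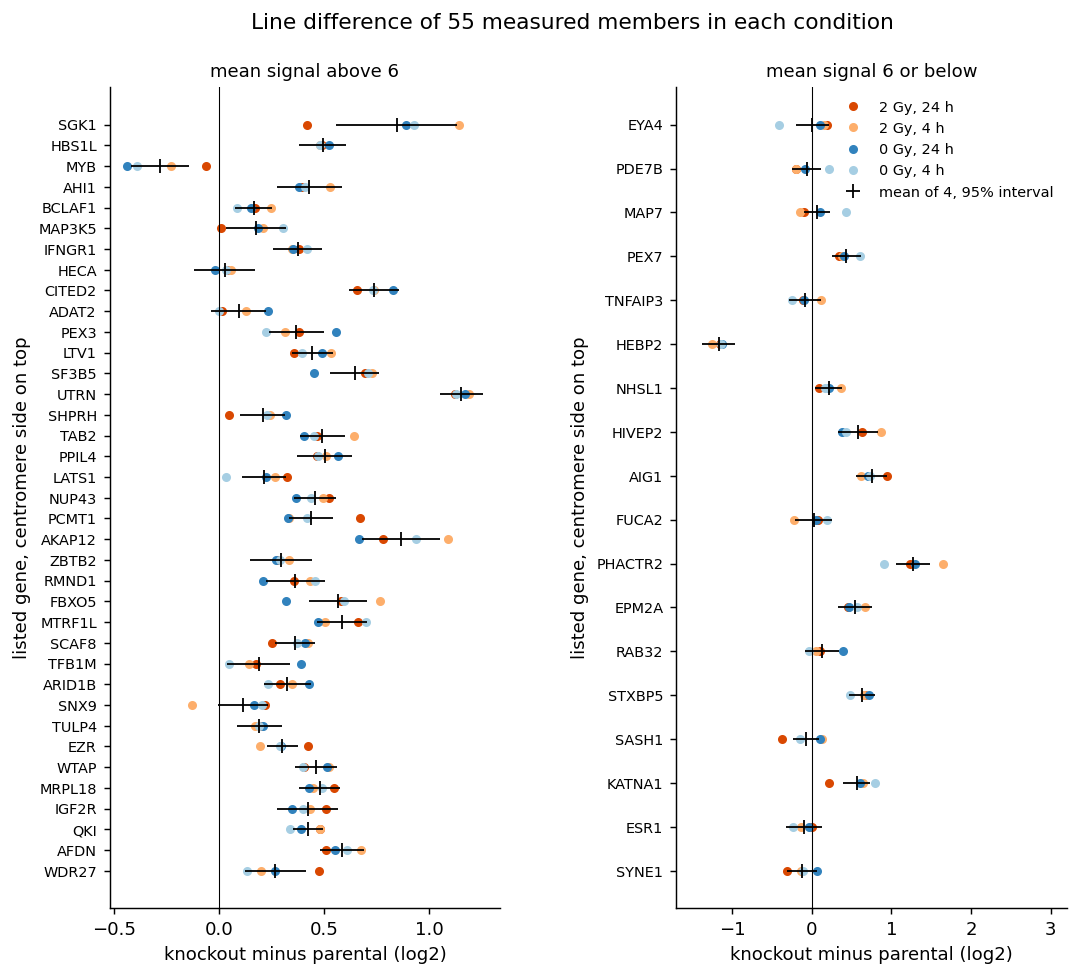
Knockout minus parental signal (log2) of each of the 55 measured members in the 4 conditions (points) and averaged over them (tick with its 95% interval), expressed members left and dim members right, from the centromere side down. The quartiles of the expressed members are 0.21 and 0.49, and HEBP2 among the dim members sits near -1.16 in every condition.

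The 18 dim members were less uniform, with a median difference of 0.10 and 12 above 0. PHACTR2 (chr6:143536878-143831185), a phosphatase and actin regulator, had 5.96, 6.12 and 6.39 on knockout arrays, against 3.97, 5.07 and 5.40 on parental arrays. The lines did not overlap, and the difference of 1.27 (SE 0.10) was the largest of any member, between 0.90 and 1.65 by condition. AIG1, a hydrolase of a class of lipids, had 5.78, 6.10 and 6.46 on knockout arrays, against 4.82, 5.29 and 5.85, and a difference of 0.75 (SE 0.10). STXBP5, or tomosyn, which holds syntaxin away from vesicle fusion, had 5.88, 6.12 and 6.30 on knockout arrays, against 5.22, 5.48 and 5.87, and a difference of 0.63 (SE 0.08). STXBP5 just stood apart between lines and AIG1 overlapped.

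HEBP2 (chr6:138403531-138422197), a heme-binding protein, had the opposite order. Its signals were 3.73, 4.35 and 4.79 on knockout arrays, against 5.15, 5.47 and 5.78 on parental arrays. Every knockout array lay below every parental array, the difference was -1.16 (SE 0.10), between -1.25 and -1.12 by condition, and HEBP2 was called lower in all 4. Its annotated span overlaps that of NHSL1 (chr6:138422043-138693212), which differed by 0.21 and was not called.

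PHACTR2, AIG1 and STXBP5 were the dim members called higher in all 4 conditions. KATNA1, a subunit of the microtubule-severing katanin, was called in 3 and differed by 0.56, and PEX7, EPM2A and HIVEP2 were each called in 1, with differences of 0.43, 0.54 and 0.58. PEX7 is a peroxisomal import receptor, EPM2A codes for laforin, a glycogen phosphatase, and HIVEP2 is a zinc finger transcription factor. EYA4, PDE7B, MAP7, TNFAIP3, NHSL1, FUCA2, RAB32, SASH1, ESR1 and SYNE1 were not called in either direction. ESR1, the estrogen receptor alpha, differed by -0.10 (SE 0.11), at 3.59, 4.15 and 4.54 on knockout arrays against 3.71, 4.24 and 4.53 on parental arrays. SYNE1, a nesprin of the nuclear envelope whose annotated span overlaps that of ESR1, differed by -0.12 (SE 0.09), at 4.09, 4.28 and 4.73 against 3.86, 4.50 and 4.80. In both genes the lines overlapped almost wholly.

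Several dim members gave little signal to compare. TNFAIP3, the NF-kB inhibitor A20, was at or below background on 12 of 12 knockout and 10 of 12 parental arrays. MAP7 was there on 11 knockout and 10 parental arrays, and PDE7B on 11 and 8. HIVEP2 was there on 6 knockout and 11 parental arrays, so its difference of 0.58 rests largely on background in parental cells. Across all 152 measured genes of the stretch the median difference followed brightness: it was -0.01 for the 51 genes with a mean below 4, 0.13 for 46 between 4 and 6, 0.36 for 39 between 6 and 8, and 0.44 for 16 above 8. For the listed members in these classes the medians were 0.01 (4 genes), 0.17 (14), 0.36 (26) and 0.46 (11). Log2 differences near background are compressed, so a member at that level with a difference near 0 cannot be told apart from one with a difference that its probes do not register. How far this reaches into dim members above background was not tested. SASH1, RAB32, FUCA2 and SYNE1, for example, were above background on every array.

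The shift was not particular to the listed genes of the stretch. The 18 other expressed genes between TAAR2 and WDR27 had a median of 0.31, and 16 lay above 0. In all 4 conditions 7 of the 18 were called higher, against 443 of all 6997 expressed genes. The stretch itself was chosen on this line difference, so these values are a description too. On the rest of chromosome 6 toward the centromere and on the short arm, 309 expressed genes had a median of -0.01. The 6628 expressed genes of the rest of the genome had a median of 0.0063. Medians of 21 other chromosomes lay between -0.05 and 0.05, with chromosome 10 at 0.27 and Y left out. By this measure chromosome 6 as a whole had 0.04, within that range. A median over a whole chromosome thus does not show a shifted stretch, and stretches of other chromosomes were not compared here.

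**Figure D3:**
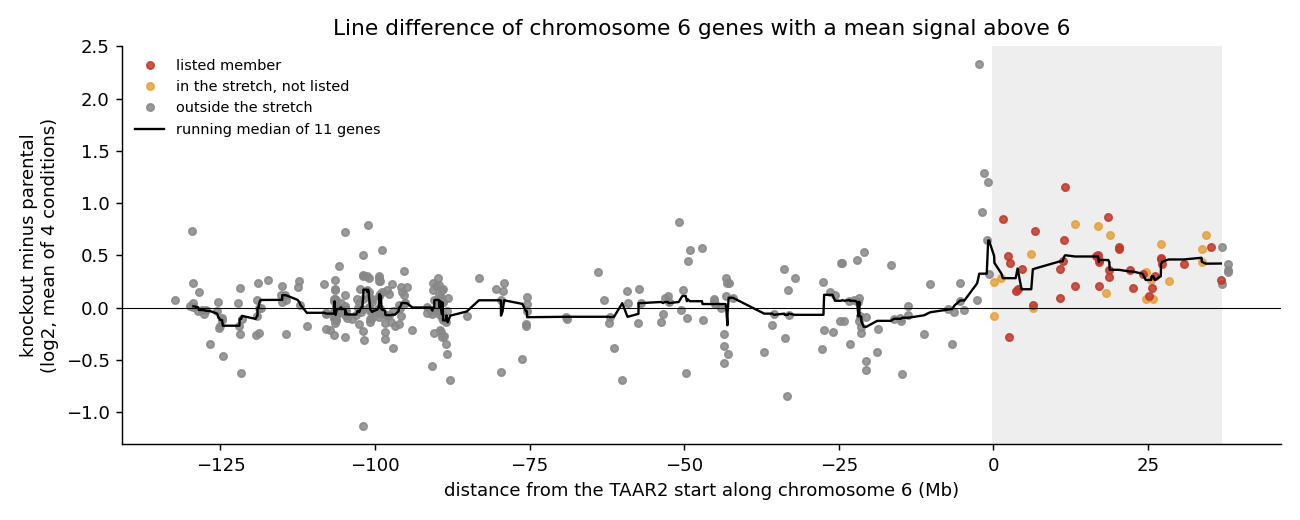
Line difference (log2, knockout minus parental, mean of 4 conditions) of each expressed gene of chromosome 6 against its distance from the TAAR2 start in Mb; red points are listed members, orange points other genes of the shaded stretch, grey points genes outside it, and the line is a running median of 11 genes. The medians near 0 over most of the chromosome give way to values of 0.27 to 0.45 in the windows of 10 Mb from TAAR2 onward. The last of these windows also holds the 5 expressed genes beyond WDR27.

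In windows of 10 Mb counted from TAAR2 the median over expressed genes was 0.27 in the first (14 genes, 11 above 0), 0.45 in the next (18 of 18 above 0), 0.32 in the one after (17 of 17) and 0.42 in the last (11 of 11). That last window runs past WDR27 and also holds the 5 expressed genes beyond it. The window just before TAAR2 had 0.23 over 13 genes, and the one before that -0.11 over 11 genes. All listed members that lay at or below 0.10 among the expressed ones, MYB, HECA and ADAT2, fell within 10.8 Mb of TAAR2. SNX9, at 25.2 Mb, had 0.11, just above that limit. Of the other expressed genes of the stretch, SLC18B1 (-0.08) and ABRACL (-0.01) lay at 0.15 and 6.41 Mb. ZDHHC14 (0.09) and TMEM181 (0.08) lay at 24.8 and 25.9 Mb. Low differences were thus not confined to the part nearest TAAR2.

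Higher signal ran past both ends named in the choice. On the centromere side the nearest expressed genes were CCN2, a matricellular protein, with 0.32 (SE 0.11) and no call, ENPP1, an ectonucleotidase, with 1.21 (SE 0.06), and MED23, a Mediator subunit, with 0.64 (SE 0.05). ENPP1 had a signal of 9.53 ± 0.21 in knockout cells and 8.32 ± 0.15 in parental cells (SD, n = 12 each). The genes after them were named once their values had been seen: AKAP7 had 1.29, EPB41L2 0.91 and TMEM200A 2.33, and TMEM200A lay 2.25 Mb before TAAR2. ENPP1, MED23, AKAP7, EPB41L2 and TMEM200A were called higher in all 4 conditions. L3MBTL3, at 2.60 Mb before TAAR2, had 0.07 (SE 0.06), and PTPRK and ECHDC1 beyond it had -0.02 and 0.07, without a call. Farther out calls were mixed: RNF146 at 5.35 Mb had 0.23 and was called higher in 2 conditions, TRMT11 at 6.63 Mb had -0.35 and was called lower in 2, and SERINC1 at 10.2 Mb had 0.22 and was called higher in 1. TMEM200A was at 8.11 ± 0.22 in knockout cells and 5.78 ± 0.32 in parental cells (SD, n = 12 each), so that it counts as expressed through the knockout arrays.

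On the telomere side all 5 expressed genes beyond WDR27 lay above 0, with a median of 0.36. Of these 5, 4 were called higher in all 4 conditions, against 443 of all 6997 expressed genes. The nearest were C6orf120 with 0.58 (SE 0.07), PHF10, a subunit of a BAF-type remodeller, with 0.22 (SE 0.04) and a call in 1 condition, and PSMB1, a proteasome subunit, with 0.36 (SE 0.04). PDCD2, the last measured gene of the chromosome, had 8.12 ± 0.13 in knockout cells and 7.70 ± 0.13 in parental cells (SD, n = 12 each). DNA copy number was not analysed here.

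Dose and time were not used to choose the members, and here tests apply. No member was called for 2 Gy against 0 Gy, although other settings called PHACTR2, TAB2 or SGK1 in parental cells. At 24 h the median difference over expressed members was -0.02 in knockout cells and -0.01 in parental cells, and at 4 h -0.03 in knockout cells and -0.07 in parental cells. Of all genes, 0% were called in knockout cells at either time, and in parental cells 0.0678% (12) at 24 h and 0.226% (40) at 4 h. At an unadjusted p below 0.05, 2 of the 55 members (3.64%) passed in knockout cells at 24 h, against 736 of all genes (4.16%), and 4 (7.27%) at 4 h, against 583 (3.30%). In parental cells 5 members (9.09%) passed at 24 h, against 1225 of all genes (6.93%), and 5 (9.09%) at 4 h, against 1183 (6.69%). Of the 37 expressed members, 2 (5.41%) passed in knockout cells at 24 h and 0 at 4 h, and 3 (8.11%) in parental cells at either time. The 95% interval of a member's response spanned a median of 0.28 log2 units on either side, without adjustment for the number of genes. A call needed more: in parental cells at 4 h, TAB2 at -0.35 and PHACTR2 at -0.74 were not called. Responses well above 0.28 could thus be missed.

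PHACTR2 came closest, in parental cells at 4 h. In knockout cells its signals were 6.13, 6.17 and 6.09 after 2 Gy, against 6.05, 6.25 and 6.07 at 0 Gy, which overlap, and the response was 0.01. In parental cells they were 3.97, 4.27 and 5.20 after 2 Gy, against 5.05, 5.22 and 5.40 at 0 Gy. Replicate 3 after 2 Gy lay within the unirradiated values, and the response of -0.74 (SE 0.20) was not called (limma adjusted p = 0.24). Without that array it was -1.10, with an adjusted p of 0.00129.

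TAB2 was at 7.91, 7.40 and 7.64 after 2 Gy in parental cells at 4 h, against 8.05, 7.85 and 8.10 at 0 Gy. One irradiated array overlapped the unirradiated ones, and the response of -0.35 (SE 0.11) had a limma adjusted p of 0.339. Without replicate 1 of the irradiated group it was -0.48, with an adjusted p of 0.0407. Over the alternative settings the adjusted p ran from 0.00129 to 1 for PHACTR2 and from 0.0407 to 1 for TAB2.

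In the other irradiation comparisons the members of lowest p were farther from a call. In knockout cells they were SHPRH with -0.27 and ADAT2 with -0.26 at 24 h, and EYA4, a transcriptional coactivator with phosphatase activity, with 0.54 and SASH1 with 0.37 at 4 h, all with limma adjusted p-values above 0.99. In parental cells at 24 h they were SASH1 with 0.42 and PCMT1 with -0.28 (limma adjusted p = 0.51 and 0.518). The largest response of a member there was that of SGK1. Its signals in parental cells at 24 h were 8.61, 8.16 and 9.00 after 2 Gy, against 7.75, 7.57 and 8.71 at 0 Gy, which overlap. Within each group replicate 3 was the highest, and each irradiated array lay above the unirradiated one of the same number. The response of 0.58 (SE 0.28) was not called (limma adjusted p = 0.718), while a fit with the replicate number as a block called it (SE 0.11, limma adjusted p = 0.00613), although the numbers did not meet the limit for pairing in that comparison.

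Time in culture also gave no call among the members, although other settings called CITED2, PHACTR2, SGK1 or AKAP12 after 2 Gy. For 24 h minus 4 h the medians over expressed members were 0.06 in knockout cells after 2 Gy and 0.04 in knockout cells at 0 Gy, and 0.03 in parental cells after 2 Gy and 0.02 in parental cells at 0 Gy. After 2 Gy 0.0452% of all genes (8) were called in knockout cells and 0.695% (123) in parental cells, and at 0 Gy 0% in both. At an unadjusted p below 0.05 (limma), 4 of the 55 members (7.27%) passed in knockout cells after 2 Gy, against 1405 of all genes (7.94%), and 5 (9.09%) at 0 Gy, against 1215 (6.87%). In parental cells the shares of members were above those of all genes, with 10 (18.2%) after 2 Gy, against 1556 of all genes (8.80%), and 8 (14.5%) at 0 Gy, against 830 (4.69%). Of the 37 expressed members, 7 (18.9%) passed in parental cells after 2 Gy and 4 (10.8%) at 0 Gy, and 3 (8.11%) in knockout cells at either dose. Expressed genes were 37 of the 55 members but 6997 of all 17687 genes. These shares, and those given for irradiation, thus compare unlike mixtures of brightness. The differences between shares were not tested.

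CITED2 came closest and was higher at 24 h in both lines. In knockout cells after 2 Gy it was at 10.76, 10.66 and 10.61 at 24 h, against 10.37, 10.56 and 10.06 at 4 h. In parental cells after 2 Gy it was at 10.12, 10.02 and 9.92 at 24 h, against 9.53, 9.84 and 9.42 at 4 h. The times did not overlap in either line. The differences were 0.35 (SE 0.12, limma adjusted p = 0.369) in knockout cells and 0.43 (SE 0.12, limma adjusted p = 0.0913) in parental cells. Once replicate 2 of the irradiated parental 4 h group was left out, the parental difference was 0.55, with an adjusted p of 0.027. At 0 Gy the differences were 0.32 in knockout and 0.23 in parental cells, of the same sign and not called. Over the alternatives the adjusted p after 2 Gy ran between 0.0391 and 0.812 in knockout cells and between 0.00209 and 0.38 in parental cells.

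PHACTR2 after 2 Gy in parental cells differed by 0.49 between 24 h and 4 h (limma adjusted p = 0.425), and by 0.85 with an adjusted p of 0.0148 without replicate 3 of the irradiated 4 h group. UTRN had 0.32 there (limma adjusted p = 0.165). The remaining members of lowest p were LTV1 with -0.27 in irradiated knockout cells, EYA4 with 0.64 and LATS1 with 0.30 in unirradiated knockout cells, and SYNE1 with -0.45 and PPIL4 with -0.30 in unirradiated parental cells. Their limma adjusted p-values were 0.439 or higher.

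**Figure D4:**
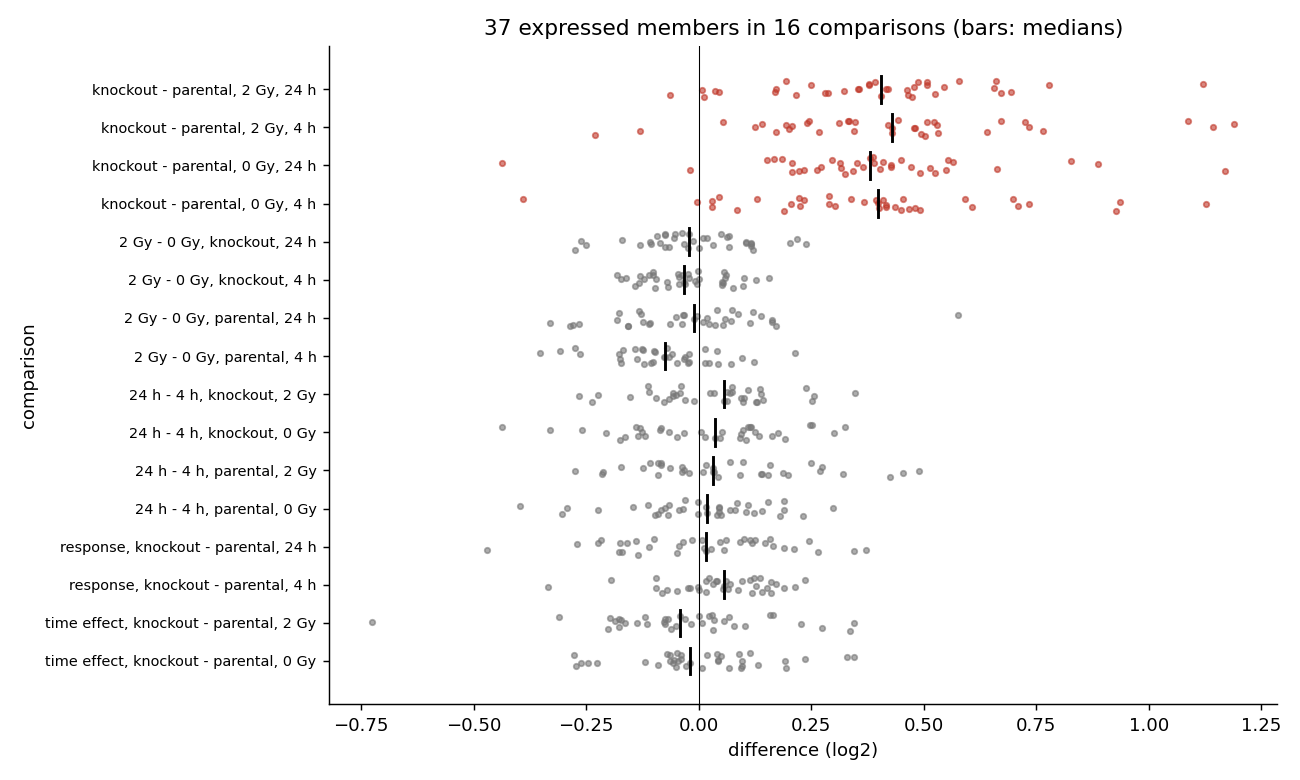
Differences (log2) of the 37 expressed members in the 16 comparisons; each point is 1 gene and the black bars are medians. The 4 line comparisons (red) have medians of 0.38 to 0.43, and the 12 comparisons of dose, time and their interaction with line (grey) have medians between -0.07 and 0.06.

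Whether the line difference itself changed with dose or time was tested by the difference of the responses, knockout minus parental. No member was called in any of the 4 such tests, and 0% of all genes were. The medians over expressed members were 0.02 at 24 h and 0.06 at 4 h for the irradiation response, and -0.04 after 2 Gy and -0.02 at 0 Gy for the time effect. At an unadjusted p below 0.05 (limma), 2 members (3.64%) passed for the irradiation response at 24 h and 2 (3.64%) at 4 h, against 560 (3.17%) and 461 (2.61%) of all genes. For the time effect 4 members (7.27%) passed after 2 Gy and 0 at 0 Gy, against 628 (3.55%) and 619 (3.50%) of all genes. Of the 37 expressed members, 1 passed for the irradiation response at 24 h and 0 at 4 h. For the time effect 3 of them passed after 2 Gy and 0 at 0 Gy. Over the 55 members the median 95% interval was 0.40 log2 units on either side, beside a median line difference of 0.37. Over the expressed members these were 0.33 and 0.42. The intervals were without adjustment for the number of genes. PHACTR2 at 0.75 was not called. A modest change of the line difference with dose or time was thus not detectable for 1 gene, and a larger one could be missed.

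For the irradiation response at 24 h, the members of lowest p were PCMT1 with 0.35 and SASH1 with -0.48. At 4 h they were PHACTR2 with 0.75 (95% interval 0.16 to 1.34) and MAP7, which stabilises microtubules, with -0.57. MAP7 was at or below background on most arrays of both lines, so its value rests largely on background. For the time effect the members of lowest p were SASH1 with -0.50 and PCMT1 with 0.34 after 2 Gy. At 0 Gy they were PEX3 with 0.33 and EYA4 with 0.50. None was called (limma adjusted p of 1 when rounded). The range of a member's line difference over the 4 conditions had a median of 0.25 over all 55 and of 0.19 over the expressed ones, with SGK1 the widest of the expressed ones at 0.72.

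Many members encode 1 subunit of a complex or 1 step of a pathway whose other genes lie elsewhere, and 13 lists of those partner genes were set beside them. The lists do not cover every complex or pathway in full. They hold 133 entries, of which 122 were measured. Their medians lay between -0.09 and 0.09, and the median over all 122 was -0.01. Of the 122, 2 were called higher in all 4 conditions (1.64%, against 3.54% of all genes) and 5 lower (4.10%, against 2.84%). Of the 122, 101 were expressed, with a median of -0.0074, against 0.0079 over all expressed genes. Expressed genes were called more often than all genes: of 6997, 443 were higher and 319 lower in all 4 conditions. The listed 6q genes were chosen for their higher signal, and the partner genes for their place in a complex or pathway. A smaller shift of the partners is thus in part set by the choice, and nothing is read from it.

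The 6 measured partners of SF3B5 in the SF3b complex lay between -0.23 (PHF5A) and 0.03 (SF3B1), with SF3B5 at 0.64. The 7 partners of WTAP in the m6A methyltransferase complex lay between -0.22 (VIRMA) and 0.09 (METTL3), with WTAP at 0.46. The 13 genes of the anaphase promoting complex and its activators lay between -0.17 (ANAPC4) and 0.19 (ANAPC7), with its inhibitor FBXO5 at 0.56. None of these 3 lists had a gene called in all 4 conditions.

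Other lists had single genes that stood apart. For the large mitochondrial ribosomal subunit the list held 21 genes, from MRPL1 to MRPL28 only, and so a part of it. They had a median of -0.02 beside MRPL18 at 0.48, but MRPL13 was at 9.68 ± 0.09 in knockout cells and 8.10 ± 0.09 in parental cells (SD, n = 12 each), a difference of 1.59. Among partners of NUP43 in the nuclear pore, SEC13, of chromosome 3, differed by 0.51 and AHCTF1 by -0.38. Of the partners of ARID1B in the BAF remodeller, SMARCC2 and SMARCD1 differed by -0.35 and -0.39, and in the chaperonin TRiC CCT2 differed by -0.41. YAP1, the effector that LATS1 phosphorylates in the Hippo pathway, was at 5.19 ± 0.22 in knockout cells and 6.63 ± 0.27 in parental cells (SD, n = 12 each), a difference of -1.44. These 7 genes were the partners called in all 4 conditions.

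The remaining lists had no gene called in all 4 conditions. Their medians were -0.04 for peroxisome biogenesis (8 genes, beside PEX3 and PEX7), 0.05 for interferon gamma signalling (7, beside IFNGR1), 0.09 for TAK1 and NF-kB signalling (10, beside TAB2 and TNFAIP3), 0.03 for ESCRT-III and VPS4 (10, the partners of VTA1) and 0.07 for ribosome rescue and tRNA deamination (4, beside HBS1L and ADAT2).

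**Figure D5:**
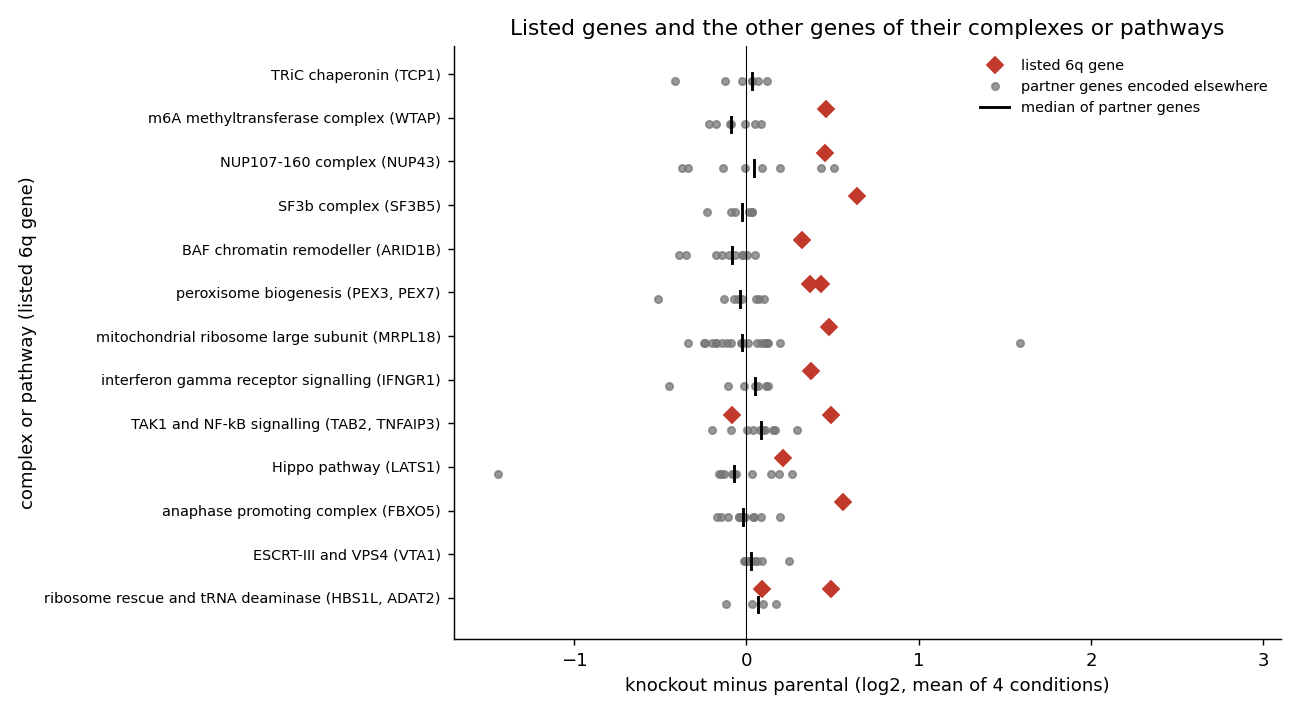
Line difference (log2, mean of 4 conditions) of listed 6q genes (red diamonds) and of partner genes from their complexes or pathways (grey points, with black bars for the list medians). The list medians lie between -0.09 and 0.09, left of most of the red diamonds. No diamond is drawn for TCP1 and VTA1, which have no value.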

How the data were processed

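The authors deposited 1 log2 signal for each probe set and array. RMA and Affymetrix Expression Console 1.1 are named in the submitters' processing notes, and no annotation build is named in the sources used here. RMA subtracts background, applies quantile normalization and summarises probes. Quantile normalization equalises the arrays' overall distributions, so a shift common to most genes would not be seen. The table holds 24351 probe sets. Each gene symbol was given its probe set of highest mean (20 genes had several), which left 17687 genes, unfiltered. Positions and promoter windows are RefSeq's (GRCh38.p14). Background was the 95th percentile of 612 negative control probe sets on each array. Array data carry no read depth, and their number limits the precision.

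Differences were fitted with limma 3.58.1 under R 4.3.3 (eBayes with a trend on intensity after lmFit), 1 mean per group over all 24 arrays. There were 16 comparisons, each adjusted by Benjamini-Hochberg over all genes, and a gene was called at an adjusted p below 0.05. The fit was tested on simulated data. Tables were made with Python 3.11.15 and pandas 2.3.3.

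The members, the lists of partner and marker genes and the motifs were chosen with earlier results of these data known. Named with values are the 8 largest and 4 smallest line differences of expressed members, the 3 largest and 3 smallest of dim ones, the members nearest to a mean of 6, the 3 genes nearest outside either end, the 2 members of lowest p in each comparison without a call, and partner genes called in all 4 conditions (up to 3 a list); other members are given more briefly so that each is accounted for.

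Same-numbered replicates deviated together, by the data and not the labels, in 4 comparisons (every correlation of their deviations above 0.1): knockout minus parental at 0 Gy, 4 h (0.103 to 0.168) and at 2 Gy, 24 h (0.151 to 0.231), and 2 Gy minus 0 Gy in knockout cells at 4 h (0.154 to 0.269) and 24 h (0.134 to 0.237). Alternatives tried were no trend, only the arrays compared, array weights, a filter on dim genes, centring, repeated quantile normalization, the mean of a gene's probe sets, a replicate block and leaving out each replicate.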

Additional observations from a re-analysis of the deposited data

How the results depend on the processing

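Under 9 kinds of other setting and 1 more chosen after seeing the data, no named line difference that was called over the mean of 4 conditions changed its sign or lost its call. HECA, not called, ran up to 0.0537 when 1 replicate was left out, but was at -0.0051 without knockout replicate 2 of the 2 Gy, 24 h group and at -0.0152 without parental replicate 1 of the 0 Gy, 24 h group, against 0.03 in the report. In single conditions some members lost their call: 21 to 23 expressed members were called higher in the report, against 16 to 22 when 1 replicate was left out and 17 to 27 under the other settings. The medians of the line comparisons stayed above 0. Their medians when 1 replicate was left out ran from 0.33 to 0.40 (0 Gy, 24 h, lowest without knockout replicate 3 at 24 h) and from 0.36 to 0.45 (2 Gy, 4 h, lowest without parental replicate 2 at 4 h). Without the 2 parental arrays of narrowest signal range, chosen after seeing the data, the median after 2 Gy at 4 h was 0.36. Members called among those not called in the report were as follows. In the response of parental cells at 4 h, array weights gave 1 (PHACTR2), and leaving out 1 replicate gave 0 to 1. For 24 h minus 4 h in irradiated parental cells, array weights gave 3 (AKAP12, CITED2 and PHACTR2), and leaving out 1 replicate gave 0 to 1. With the replicate block, 1 member was called for 24 h minus 4 h in irradiated knockout cells (CITED2) and 2 in irradiated parental cells (CITED2 and SGK1), and 1 for the response of parental cells at 24 h (SGK1). Those numbers did not meet the limit for pairing, and the block changed no other call by over 1.5 times. Leaving out 1 replicate moved the median over expressed members to -0.13 to -0.057 for the response of parental cells at 4 h. It moved the median of 24 h minus 4 h to -0.015 to 0.055 in irradiated and -0.038 to 0.068 in unirradiated knockout cells and to 0.0017 to 0.10 in irradiated parental cells. For the difference of the time effects at 0 Gy it gave -0.036 to 0.043. Of these medians near 0, those in knockout cells and that of the difference of time effects thus changed sign, as did the response medians at 24 h, with -0.024 to 0.022 in knockout and -0.044 to 0.0093 in parental cells. SNX9 was called over the mean of 4 conditions with array weights (0.13) and without knockout replicate 1 of the 2 Gy, 4 h group (0.15). The causes were not tested. Signal near background limits what dim members can show.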
